A study of Homo sapiens with 21 samples.

Results

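The 10 genes described here, GAS5, SNHG1, SNHG3, SNHG5, SNHG6, SNHG8, SNHG12, SNHG15, SNHG16 and ZFAS1, are long noncoding RNA genes that carry small nucleolar RNAs (snoRNAs) in their introns. They were found by symbol among the 42339 genes of the count table, and all 10 had 1 row each and a value in every library. BT-549 is an established triple-negative breast cancer (TNBC) cell line, and 21 bulk RNA-seq libraries were made from it, 3 for each of 7 groups. All groups carry the genotype label WT. The groups were (i) 2D cells grown as monolayers, with the treatment label Control, (ii) 3D cells, which are mammospheres at serial passage 6 with the same label, (iii) passage 6 3D cells treated with 0.75 μM GO-203, (iv) tet-MUC1shRNA mammospheres at passage 6 treated with 0.1% DMSO as vehicle, (v) the same line treated with 500 ng/ml doxycycline (DOX), (vi) tet-MYCshRNA mammospheres at passage 8 treated with 0.1% DMSO, and (vii) that line treated with 500 ng/ml DOX. GO-203 is a peptide inhibitor of the MUC1-C cytoplasmic domain, and the tet lines express their shRNA when given DOX. One shRNA was used per target, and no library came from DOX-treated cells without an shRNA, so the action of DOX and that of the shRNA cannot be told apart. The growth format of 2D and 3D cells also comes with a change of medium, from one with serum to a serum-free mammosphere medium.

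A snoRNA host gene is transcribed and spliced like any other gene. Its introns release snoRNAs, which assemble with a small set of proteins into snoRNPs that guide the chemical modification of ribosomal RNA: box C/D snoRNAs guide 2′-O-methylation and box H/ACA snoRNAs guide pseudouridylation. The spliced RNA is in many cases a substrate of nonsense-mediated decay (NMD). Several host genes start with a run of pyrimidines like that of the 5′ terminal oligopyrimidine (TOP) mRNAs, which encode ribosomal proteins and translation factors. MYC is a transcription factor known for driving ribosome production, including genes of snoRNP proteins. The poly(A)-selected libraries measured the spliced host RNA and not, for the most part, the mature snoRNAs.

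Positions are those of GENCODE release 44 on GRCh38. GAS5 (ENSG00000234741, chr1:173858559-173868882, minus strand), SNHG1 (ENSG00000255717, chr11:62851978-62855953, minus strand), SNHG5 (ENSG00000203875, chr6:85650491-85678932, minus strand), SNHG6 (ENSG00000245910), SNHG16 (ENSG00000163597, chr17:76557727-76670985, plus strand) and ZFAS1 (ENSG00000177410, chr20:49278178-49299600, plus strand) host box C/D snoRNAs. SNHG3 (ENSG00000242125, chr1:28505980-28510892, plus strand), SNHG8 (ENSG00000269893, chr4:118278703-118285316, plus strand) and SNHG15 (ENSG00000232956, chr7:44983019-44986961, minus strand) host box H/ACA snoRNAs, and SNHG12 (ENSG00000197989, chr1:28578538-28583132, minus strand) hosts both kinds.

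The start of these genes was examined because a pyrimidine run at that place is the feature they can share with TOP mRNAs. RefSeq promoter sequences of GRCh38.p14 were matched for 8 of the 10 members. A tract, defined as a C followed by at least 4 bases that are C or T on the gene strand and starting within 10 bases of the RefSeq start, was found in 5 of these 8 (62.5%) and in 33.3% of the 27305 promoters in the table. The 5 are shown first, with the tract in capitals, followed by SNHG3 and SNHG1, which had the largest falls on MYC silencing and no such tract at this start. Each stretch runs from 50 bases before the RefSeq start to 30 after it, 5′ to 3′ on the gene strand.
SNHG5 (chr6:85678704-85678783, minus strand): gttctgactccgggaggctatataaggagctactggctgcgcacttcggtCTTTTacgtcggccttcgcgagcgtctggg
SNHG8 (chr4:118278712-118278791, plus strand): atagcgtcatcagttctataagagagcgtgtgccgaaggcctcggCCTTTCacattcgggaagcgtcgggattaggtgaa
SNHG12 (chr1:28581844-28581923, minus strand): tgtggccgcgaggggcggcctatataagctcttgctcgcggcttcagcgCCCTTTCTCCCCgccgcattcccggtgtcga
SNHG16 (chr17:76557714-76557793, plus strand): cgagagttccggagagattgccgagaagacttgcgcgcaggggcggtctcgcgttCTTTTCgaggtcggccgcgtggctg
ZFAS1 (chr20:49278592-49278671, plus strand): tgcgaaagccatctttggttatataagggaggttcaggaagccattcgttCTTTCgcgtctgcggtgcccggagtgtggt
SNHG3 (chr1:28505893-28505972, plus strand): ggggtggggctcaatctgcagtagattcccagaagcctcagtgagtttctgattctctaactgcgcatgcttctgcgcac
SNHG1 (chr11:62855856-62855935, minus strand): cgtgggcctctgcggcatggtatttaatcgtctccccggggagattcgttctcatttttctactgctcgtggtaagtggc
The E-box CACGTG, a letter string that MYC and other bHLH factors are known to bind and that reads the same on both strands, was in 0 of the 8 member windows of 300 bases and in 7.43% of all 27305 promoters. That count concerns only these letters in these windows. The window depends on where a gene is taken to start: the RefSeq start lay 37 to 199 bases from the GENCODE start for GAS5, SNHG1, SNHG3, SNHG5, SNHG8 and SNHG16, 464 bases from it for ZFAS1 and 1259 bases from it for SNHG12. Of 11 TOP-type translation genes with a promoter in the table, 9 (81.8%) held the tract, as did 11 of 16 other noncoding host genes (68.8%). With the tract starting within 5 bases of the RefSeq start, the counts were 5 of 8 members (62.5%), 9 of 11 TOP-type genes (81.8%) and 7 of 16 other noncoding hosts (43.8%), beside 21.1% of all promoters.

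Library totals ran from 38026597 to 99751717 counts, and a member had between 377 and 15484 counts in a library, so the spread between cultures sets the precision. Levels are given as CPM, read counts relative to library size, scaled by TMM factors over the 21 libraries, and are compared within a gene only. Values after ± are SD over 3 libraries for levels, and SE stands for the standard error of a log2 fold change. The mesenchymal markers VIM, FN1, CD44 and ZEB1 were detected in every library, while ESR1 was at most 1.48 CPM and PGR, CD3E and CDH5 had at most 4 counts. PTPRC had 1.03 to 1.49 CPM in 2D cells and at most 0.157 CPM elsewhere, and PECAM1 had at most 2 counts in 2D cells and 2.59 to 10.1 CPM in mammospheres. As to the targets, MUC1 fell by 2.06 on the log2 scale in DOX-treated tet-MUC1shRNA cells (adjusted p = 3.0e-15), and MYC fell by 0.62 in DOX-treated tet-MYCshRNA cells (adjusted p = 9.1e-05). Each p is from edgeR's quasi-likelihood test, adjusted over all genes tested.

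The 10 host RNAs differed in how far their levels moved over the 7 groups. DOX-treated tet-MYCshRNA cells had the lowest mean for 8 of the 10, and in all 8 the 3 libraries of that group lay below every library of the next lowest group. The exceptions were GAS5, lowest in 2D cells, and SNHG6, lowest in DOX-treated tet-MUC1shRNA cells. The highest group mean was 7.99-fold over the lowest for SNHG8, 6.03-fold for SNHG1 and 5.39-fold for SNHG3, against 1.68-fold for GAS5 and 1.84-fold for SNHG6. Vehicle-treated tet-MUC1shRNA cells had the highest mean for 5 members (SNHG1, SNHG3, SNHG8, SNHG16 and ZFAS1). How many of all genes had their lowest or highest mean in these groups was not counted. Between the tet-MYCshRNA groups alone, 59.5% of all genes tested did not overlap.

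The vehicle-treated lines and 3D cells were not at one level. SNHG8 was at 65.3 ± 4.13 CPM in vehicle-treated tet-MUC1shRNA cells, 29.8 ± 2.03 in 3D cells and 22.5 ± 0.123 in vehicle-treated tet-MYCshRNA cells. SNHG1 was at 168.2 ± 16.9, 86.5 ± 6.11 and 84.1 ± 0.486 CPM in the same order. For SNHG6 the order differed, with 39.6 ± 0.648, 49.1 ± 1.82 and 46.5 ± 2.85 CPM, and the 3D and tet-MYCshRNA ranges overlapped. In order of mean, GAS5 had overlapping neighbours among GO-203-treated 3D cells, 3D cells and vehicle-treated tet-MUC1shRNA cells, and again among the tet-MYCshRNA groups and DOX-treated tet-MUC1shRNA cells, with 2D cells apart at the bottom. Passage number and line differ together between the tet-MYCshRNA group and the others, so they cannot be told apart.

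**Figure D1:**
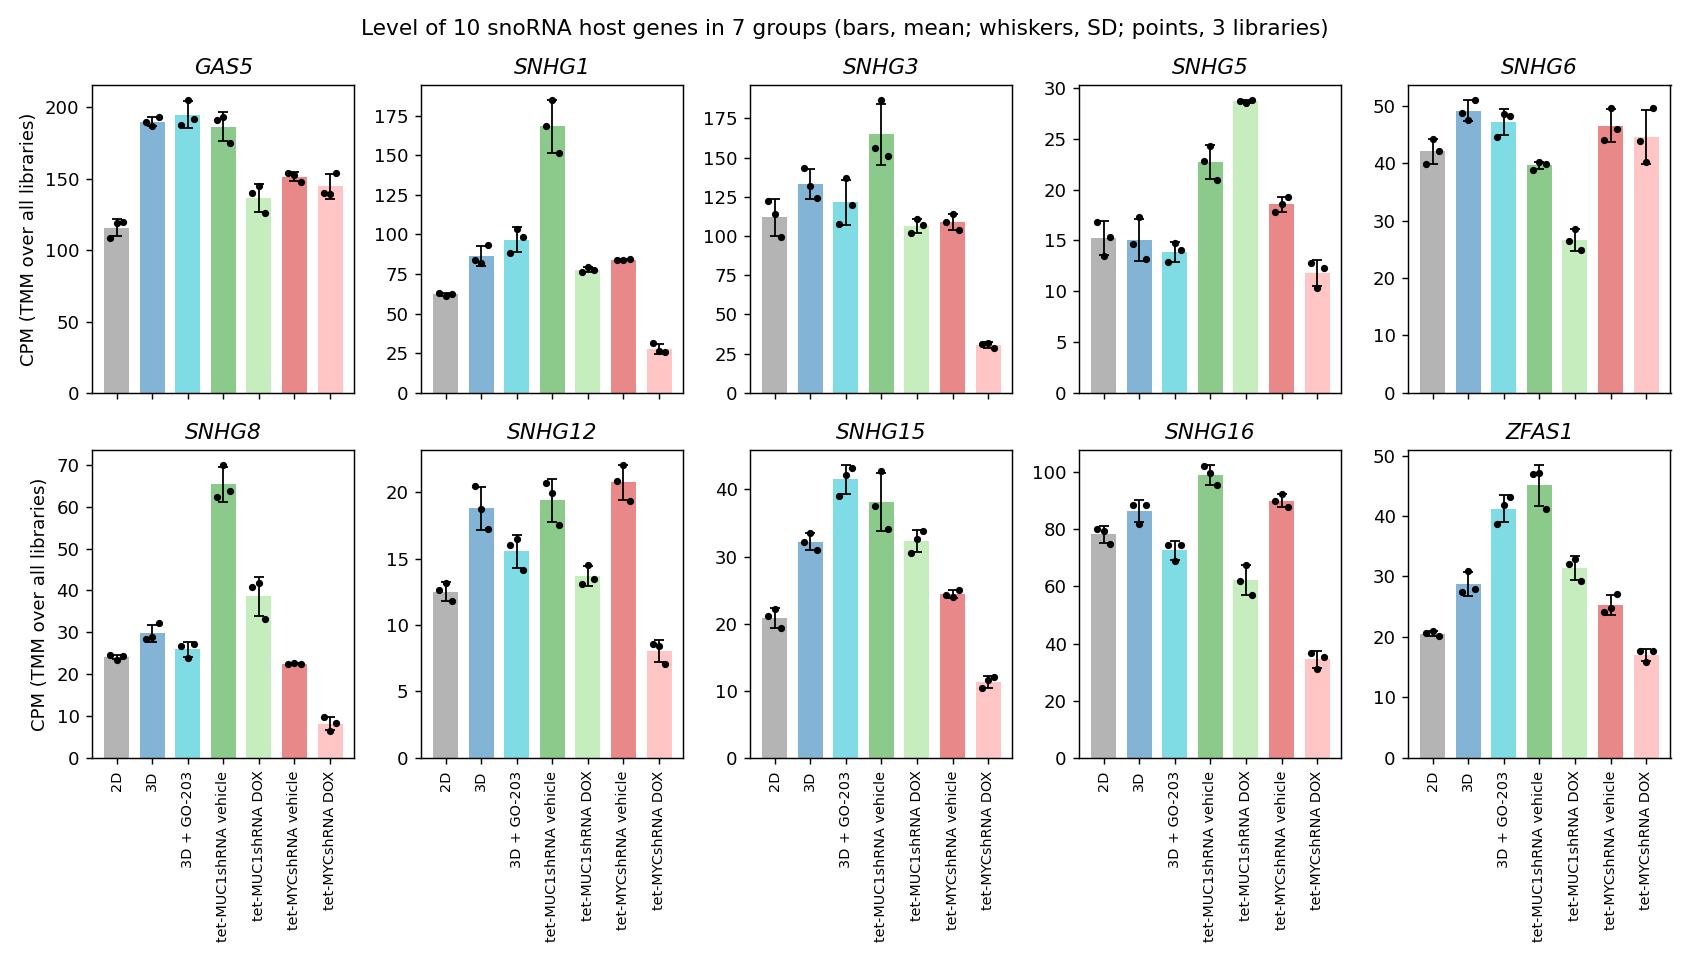
Level of each host gene (CPM, TMM over 21 libraries; y axes start at 0 and differ between panels) in the 7 groups, with bars for the mean, whiskers for the SD and points for the 3 libraries. The DOX-treated tet-MYCshRNA bar is the lowest in 8 of the 10 panels, the exceptions being GAS5 and SNHG6. The same count was not made over all genes.

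MYC silencing was associated with lower levels of most host RNAs. In DOX- vs. vehicle-treated tet-MYCshRNA cells, 8 of the 10 members were downregulated at an adjusted p below 0.1, none was upregulated, and GAS5 and SNHG6 did not pass. Over all 19951 genes tested, 58.5% passed in either direction, 30.3% were upregulated and 28.1% downregulated. The median log2 fold change was -1.26 over the members and 0.01 over all genes, and 8 members had groups that did not overlap, as did 59.5% of all genes. Requiring also an absolute log2 fold change above 1.5 left SNHG1 and SNHG3, 2 of the 10, where 10.5% of all genes passed, and a linear fold change above 1.5 in either direction left 8, where 37.7% did. A lower total of these RNAs can come from fewer cells that express them or from less RNA per cell, which bulk libraries do not separate.

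Among hosts of box H/ACA snoRNAs, SNHG3, which carries the SNORA73 pair involved in rRNA processing, was at 109.0, 113.8 and 104.0 CPM in the vehicle libraries and at 31.3, 32.0 and 28.4 CPM with DOX. The groups lay far apart, and the log2 fold change was -1.85 (SE 0.08, edgeR adjusted p = 3.5e-08), 3.61-fold lower. SNHG8, host of SNORA24, went from 22.4, 22.6 and 22.4 CPM to 9.70, 6.49 and 8.35 CPM. Its vehicle libraries were nearly equal and every DOX library was lower, by a log2 fold change of -1.48 (SE 0.14). SNHG15, host of SNORA9, had 24.2, 24.0 and 25.1 CPM with vehicle and 10.4, 11.6 and 12.0 with DOX, again without overlap (log2 fold change -1.13, SE 0.09). SNHG12, with snoRNAs of both kinds, fell from 20.8, 22.0 and 19.3 CPM to 8.59, 8.44 and 7.08 CPM. All its DOX libraries were below the vehicle range, at a log2 fold change of -1.39 (SE 0.11).

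Log2 fold changes of the box C/D hosts ranged from -1.61 to -0.08. SNHG1, which carries a run of box C/D snoRNAs that includes SNORD25 to SNORD31, was at 83.7, 84.2 and 84.6 CPM with vehicle and 31.5, 26.4 and 25.7 CPM with DOX. The groups did not overlap and the log2 fold change was -1.61 (SE 0.09, edgeR adjusted p = 2.3e-07). SNHG16, host of the SNORD1 family, had 90.0, 92.3 and 87.9 CPM with vehicle and 36.9, 31.2 and 35.3 CPM with DOX, a log2 fold change of -1.41 (SE 0.08) with no overlap. SNHG5, host of SNORD50A and SNORD50B, went from 17.8, 18.5 and 19.3 CPM to 12.7, 10.4 and 12.3 CPM, with a log2 fold change of -0.67 (SE 0.11). ZFAS1, host of the SNORD12 family, went from 24.1, 24.7 and 27.1 CPM to 17.7, 15.9 and 17.6 CPM, with a log2 fold change of -0.59 (SE 0.09). Both were lower in every DOX library, by less than the hosts before them.

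GAS5 and SNHG6 did not pass on MYC silencing. GAS5, a host of many box C/D snoRNAs whose name comes from its accumulation in growth-arrested cells, had 153.7, 152.5 and 148.1 CPM with vehicle and 140.1, 139.3 and 154.4 CPM with DOX. DOX replicate 3 lay above the vehicle range, and the log2 fold change of -0.09 had a 95% interval from -0.22 to 0.05 (edgeR adjusted p = 0.269). SNHG6, host of SNORD87, had 43.9, 49.6 and 46.0 CPM with vehicle and 43.8, 40.3 and 49.6 CPM with DOX. Its groups overlapped as well, with a log2 fold change of -0.08 and an interval from -0.28 to 0.12 (adjusted p = 0.485). These intervals do not reach the change of any of the 8 members that passed.

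**Figure D2:**
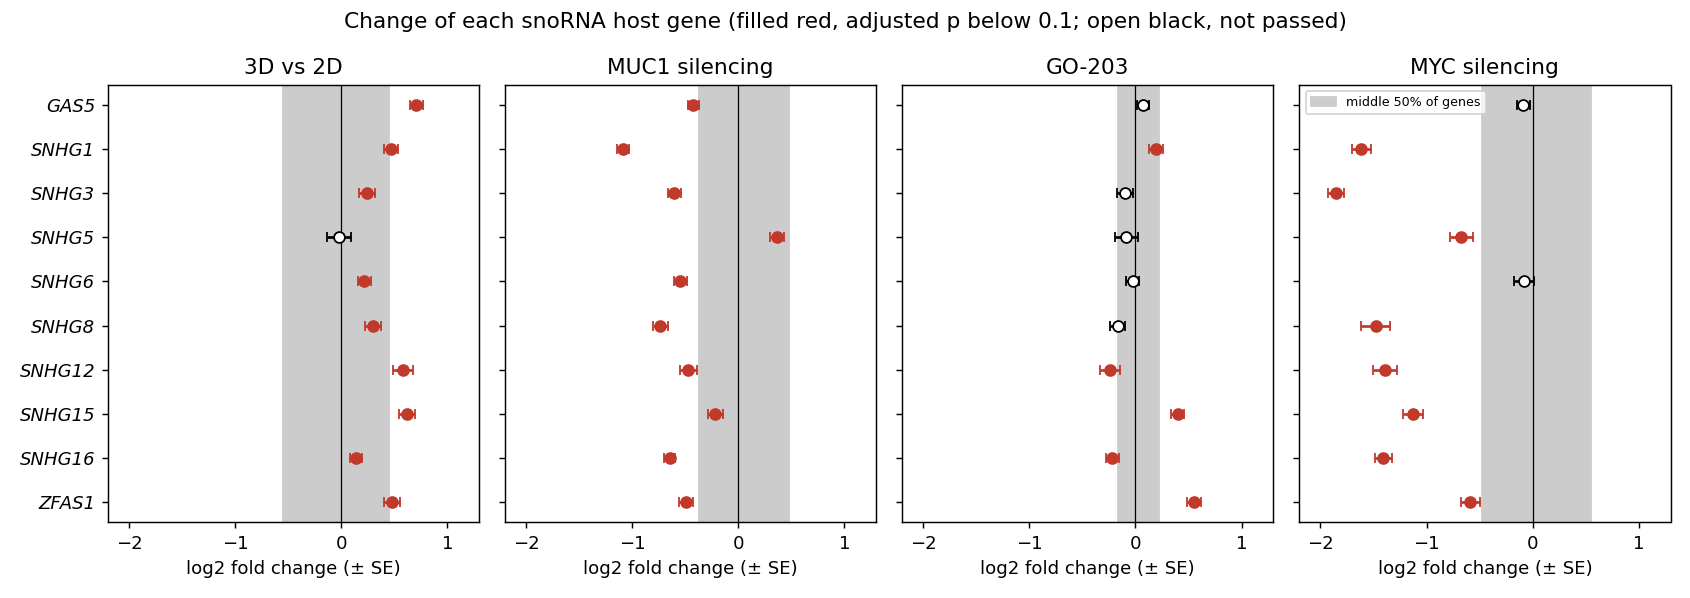
Log2 fold change (± SE) of each host gene in 4 comparisons, with filled red points for adjusted p below 0.1 and open points for members that did not pass; the grey band holds the middle 50% of all genes tested. On MYC silencing 8 points lie at or left of -0.59 and 2 near 0, while on GO-203 treatment the points spread on both sides of 0.

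MUC1 silencing came with falls in 9 members and a rise in 1. In DOX- vs. vehicle-treated tet-MUC1shRNA cells, 9 members were downregulated and SNHG5 was upregulated. Of 19220 genes tested, 62.2% passed in either direction, 31.6% were downregulated and 30.7% upregulated, and groups did not overlap for all 10 members and for 62.4% of genes. The members' median log2 fold change was -0.52 beside 0.02 for all genes. None passed the log2 threshold of 1.5, which 8.82% of all genes did, and 4, all falls, passed a linear fold change of 1.5, as 32.2% of all genes did.

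SNHG1 had the largest fall, from 168.4, 185.0 and 151.2 CPM to 76.6, 79.2 and 77.6 CPM. Its vehicle libraries spread widely but all were well above the DOX libraries, and the log2 fold change was -1.09 (SE 0.06, edgeR adjusted p = 1.9e-12). SNHG8 was next, from 62.2, 70.0 and 63.7 CPM to 40.8, 41.8 and 33.1 CPM (log2 fold change -0.73, SE 0.07). With DOX, SNHG1 lay below the range of 3D cells and SNHG8 above it.

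SNHG16 went from 102.3, 99.7 and 95.3 CPM to 61.8, 67.6 and 57.0 CPM, a log2 fold change of -0.65 (SE 0.06). SNHG3 went from 156.0, 186.9 and 151.2 CPM to 102.1, 111.0 and 106.9 CPM, a log2 fold change of -0.60 (SE 0.06). ZFAS1, SNHG12 and GAS5 followed with -0.50, -0.47 and -0.42. Every DOX library of these 5 genes was below the vehicle libraries.

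SNHG6, which did not pass on MYC silencing, had 38.9, 40.1 and 39.8 CPM with vehicle and 26.5, 28.6 and 24.8 CPM with DOX in the tet-MUC1shRNA line. The groups did not overlap and the log2 fold change was -0.55 (SE 0.06, edgeR adjusted p = 1.5e-07). SNHG5 moved the other way, from 22.8, 24.3 and 20.97 CPM to 28.7, 28.5 and 28.8 CPM. Its DOX libraries were nearly equal and above every vehicle library, with a log2 fold change of 0.36 (SE 0.07, adjusted p = 1.1e-04). SNHG15 had the smallest change, from 37.5, 42.7 and 34.2 CPM to 30.6, 32.6 and 33.7 CPM. Its ranges came within 1 CPM of each other, and the log2 fold change of -0.22 (adjusted p = 0.0169) did not pass with libraries scaled by size alone (-0.05, adjusted p = 0.595, beside a median of 0.19 for all genes) or without the second vehicle library (-0.13, adjusted p = 0.140) or without the first DOX library (-0.17, adjusted p = 0.106).

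The difference between the effects of silencing MUC1 and MYC was tested as an interaction over the 12 libraries of the tet lines, as the change on MUC1 silencing minus that on MYC silencing. It passed for 9 members, as it did for 52.9% of all 21585 genes tested, with 7 above 0 and 2 below, where 26.0% and 26.9% of all genes lay. No member passed a log2 threshold of 1.5 here, as 16.2% of all genes did, and 6, all above 0, passed a linear fold of 1.5, as 39.4% did; SNHG1, GAS5 and SNHG6 did not pass it. The falls were smaller with MUC1 silencing for SNHG3 (difference 1.24, SE 0.11), SNHG12 (0.90), SNHG15 (0.90), SNHG16 (0.75), SNHG8 (0.73) and SNHG1 (0.51), and for SNHG5, where the signs were opposite, the difference was 1.02 (SE 0.12). GAS5 (difference -0.35, SE 0.09) and SNHG6 (-0.48, SE 0.11) were lowered more by MUC1 silencing, but with libraries scaled by size alone, which moved the median difference of all genes from 0.05 to 0.25, GAS5 did not pass (-0.15, adjusted p = 0.143). ZFAS1 changed by -0.50 and -0.59, and the difference of 0.07 had a 95% interval from -0.17 to 0.32; it was 0.28 and passed under that scaling (adjusted p = 0.050). MYC mRNA itself was higher on MUC1 silencing, by a log2 fold change of 0.25, while MUC1 mRNA was higher on MYC silencing, by 1.25. The lines also differ in passage, which cannot be told apart from the target.

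The plot of both silencing effects also shows protein-coding genes that start within 1 kb of a member on the opposite strand. A lncRNA (ENSG00000267546) that starts 44 bases from SNHG16 had 0 to 11 counts per library, which left it out of every test. SLC3A2, a subunit of amino acid transporters, starts 51 bases from SNHG1, ZNFX1, an RNA helicase of the antiviral response, starts 248 bases from ZFAS1, and ZBTB37, a zinc finger protein, starts 800 bases from GAS5. On MYC silencing SLC3A2 rose by 0.91 (log2), ZNFX1 by 1.47 and ZBTB37 by 0.43, all 3 past the threshold, while SNHG1 and ZFAS1 fell and GAS5 did not pass. On MUC1 silencing SLC3A2 fell with SNHG1, by 0.54, ZNFX1 rose by 0.68 while ZFAS1 fell, and ZBTB37 had a log2 fold change of -0.08 and did not pass. Between 2D and 3D cells ZBTB37 fell by 1.08 and SLC3A2 by 0.19 while GAS5 and SNHG1 rose, and ZNFX1 had -0.07 and did not pass. With GO-203 all 3 rose, by 0.29 for SLC3A2, 0.19 for ZNFX1 and 0.40 for ZBTB37.

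**Figure D3:**
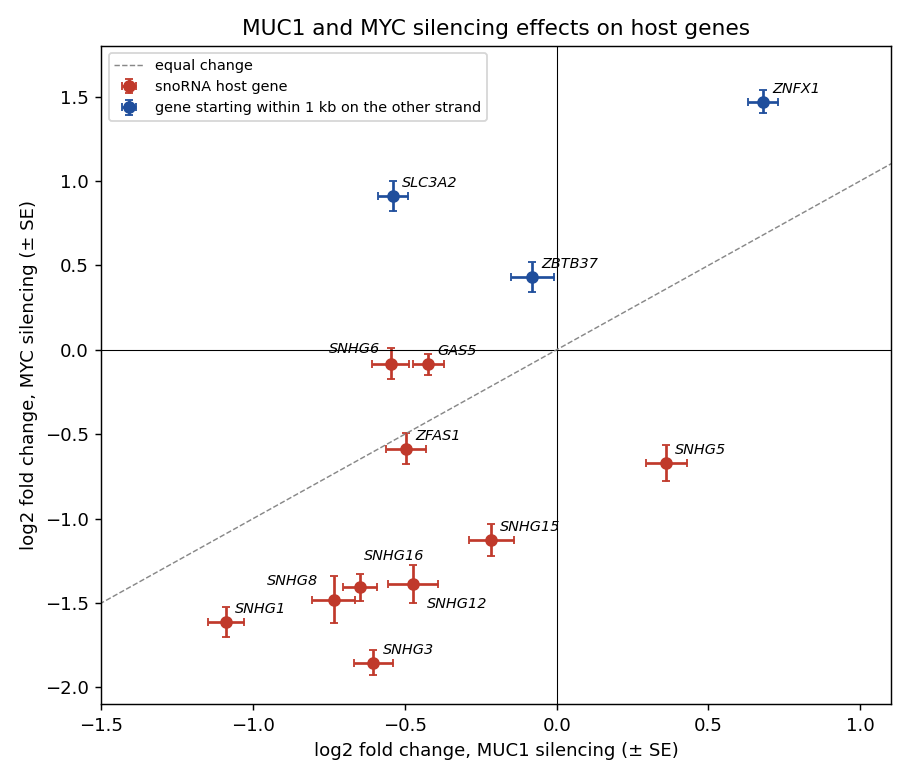
Log2 fold change (± SE) on MUC1 silencing (x axis) against that on MYC silencing (y axis) for the 10 host genes (red) and the 3 protein-coding genes that start within 1 kb on the other strand (blue); the dashed line marks equal change. SNHG3, SNHG12, SNHG15, SNHG16, SNHG8, SNHG1 and SNHG5 lie below the line, GAS5 and SNHG6 above it, and all 3 neighbours lie above 0 on the y axis.

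Growth as mammospheres came with higher host RNA levels. In 3D vs. 2D cells 9 members were upregulated, none was downregulated, and SNHG5 did not pass. Among 19190 genes tested, 63.7% passed in either direction, 32.0% upregulated and 31.7% downregulated. The groups of 9 members and of 64.2% of all genes did not overlap. The median log2 fold change was 0.38 for the members and -0.01 for all genes, and no member passed a log2 threshold of 1.5, which 16.2% of all genes did. A linear fold change of 1.5 was passed by 2 members and by 39.0% of all genes.

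GAS5 had the largest rise, from 108.6, 118.9 and 119.7 CPM in 2D cells to 190.0, 186.9 and 192.9 CPM in 3D cells. The 3D libraries were close together and all above the 2D libraries, with a log2 fold change of 0.71 (SE 0.06, edgeR adjusted p = 1.8e-08). SNHG15 rose from 21.2, 22.2 and 19.3 CPM to 32.2, 33.5 and 30.9 CPM (log2 fold change 0.62, SE 0.08), and SNHG12 from 12.6, 13.2 and 11.8 CPM to 20.5, 18.7 and 17.2 CPM (0.58, SE 0.09). Neither overlapped between the groups. ZFAS1 and SNHG1 rose by 0.48 and 0.47, and SNHG8, SNHG3 and SNHG6 by 0.30, 0.24 and 0.22. SNHG16, with 80.1, 79.6 and 74.95 CPM in 2D and 88.6, 81.8 and 88.6 in 3D cells, had the smallest passing change, 0.14 (SE 0.06, adjusted p = 0.0561). It did not pass without 2D replicate 3 (adjusted p = 0.172) or without 3D replicate 3 (adjusted p = 0.123), nor with scaling by library size alone (0.08, adjusted p = 0.285) or without a low-count filter (adjusted p = 0.103). SNHG5 overlapped fully, with 16.8, 13.5 and 15.4 CPM in 2D and 14.7, 17.3 and 13.2 CPM in 3D cells (log2 fold change -0.02, 95% interval -0.26 to 0.22, adjusted p = 0.888).

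GO-203, in contrast, did not move the members in one direction. In GO-203-treated vs. control 3D cells, 3 members were upregulated, 2 downregulated and 5 did not pass. Of 18488 genes tested 24.1% passed in either direction, 11.1% upregulated and 12.9% downregulated. The members' median log2 fold change was -0.06, beside 0.02 for all genes, and 5 members and 33.1% of genes had groups that did not overlap. None of the members passed a log2 threshold of 1.5, nor did most genes, since 0.757% of them passed it, and 0 members and 5.63% of genes passed a linear fold change of 1.5. At an adjusted p below 0.05, 3 members and 18.7% of all genes passed. The 3D libraries are the same as those compared with 2D cells, so both comparisons share their errors.

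ZFAS1 rose from 27.5, 30.9 and 27.9 CPM to 38.7, 41.9 and 43.1 CPM, with every treated library above the control ones and a log2 fold change of 0.55 (SE 0.07, edgeR adjusted p = 3.4e-06). SNHG15 rose from 32.2, 33.5 and 30.9 CPM to 39.0, 42.2 and 43.3 CPM, also without overlap (log2 fold change 0.40, SE 0.06, adjusted p = 9.6e-05). Both had been higher in 3D than in 2D cells, by 0.48 and 0.62. SNHG16 fell from 88.6, 81.8 and 88.6 CPM to 74.5, 68.9 and 74.7 CPM (log2 fold change -0.22, SE 0.06, adjusted p = 0.0110), below each of its 2D libraries.

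The other GO-203 calls were near the threshold. SNHG12 had 20.5, 18.7 and 17.2 CPM without and 16.0, 16.5 and 14.1 CPM with GO-203, a log2 fold change of -0.24 (adjusted p = 0.0742). It did not pass without the first 3D library (-0.18), the second 3D library (-0.24), the first GO-203 library (-0.27) or GO-203 replicate 3 (-0.17), nor with scaling by library size alone (adjusted p = 0.104). SNHG1 had 83.8, 82.1 and 93.4 CPM without and 88.0, 103.5 and 98.5 CPM with GO-203. Its groups overlapped, and the log2 fold change of 0.19 (adjusted p = 0.0540) did not pass without 3D replicate 1 (0.17) or 2 (0.16) or without GO-203 replicate 2 (0.13) or 3 (0.19), nor in 1 fit over 21 libraries (0.16, adjusted p = 0.192). Without 3D replicate 1, 3D replicate 2 or GO-203 replicate 3, 3 members passed in place of 5. SNHG8, with groups that did not overlap, had a log2 fold change of -0.17 and an adjusted p of 0.102, and passed with DESeq2 (adjusted p = 0.0948). GAS5, SNHG3, SNHG5 and SNHG6 had log2 fold changes from -0.10 to 0.07, with 95% intervals within -0.30 to 0.19. SNHG3 passed without the second GO-203 library (-0.21, adjusted p = 0.0655).

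Related genes were counted in the same fits, in which 30.3% of all genes rose and 28.1% fell on MYC silencing, 30.7% and 31.6% on MUC1 silencing, 32.0% and 31.7% in 3D vs. 2D cells, and 11.1% and 12.9% with GO-203. Of 18 other noncoding snoRNA host genes in the table, 16 were tested in each of the 4 comparisons. On MYC silencing 12 were downregulated and 4 did not pass, with a median log2 fold change of -0.86. DANCR, host of box H/ACA snoRNAs, and SNHG4 had the largest falls (-2.19, SE 0.09, and -2.11, SE 0.14). On MUC1 silencing 5 rose, 6 fell and 5 did not pass, shares near those of all genes (30.7% and 31.6%), with a median of 0.01. SNHG9 (1.22, SE 0.46) and SNHG20 (0.97, SE 0.16) were the largest rises and EPB41L4A-AS1 (-0.76) and SNHG29 (-0.62) the largest falls. SNHG9 was near the floor, with means of 0.244 CPM with vehicle and 0.544 CPM with DOX (edgeR adjusted p = 0.0274). The SNHG20 means were 2.02 and 3.92 CPM. Between 2D and 3D cells 7 were higher and 3 lower in 3D cells (median 0.28), led by EPB41L4A-AS1 (0.92) and by SNHG14 (-1.16, SE 0.28). SNHG14 was low in both, with means of 1.84 CPM in 2D and 0.833 CPM in 3D cells. With GO-203, 4 rose, SNHG7 (1.15) and SNHG11 (0.90) the most, 1 fell (DANCR, -0.45) and 11 did not pass.

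Genes for the proteins that the snoRNAs bind had lower mRNA levels on MYC silencing. The mRNAs of all 8 core snoRNP genes were downregulated (median -0.99), among them GAR1 (-1.34) and the pseudouridine synthase DKC1 (-1.23) of H/ACA particles and the methyltransferase FBL (-1.33) of C/D particles. Of 10 snoRNP assembly factors 9 were downregulated (median -0.64), with the ATPases RUVBL1 (-1.45) and RUVBL2 (-1.04) in front, and ZNHIT3 (-0.13) did not pass. On MUC1 silencing the core list had 1 rise, 4 falls and 3 genes that did not pass, with FBL lowest (-0.61) and NOP56 raised (0.29). The assembly list had 3 rises, led by NOPCHAP1 (1.29), 2 falls and 5 that did not pass. FBL was also the core gene with the largest rise in 3D vs. 2D cells (1.20), where 6 rose and 1 fell (GAR1, -0.17), while 6 assembly factors rose and 2 fell. With GO-203, 3 core mRNAs fell, FBL the most (-0.32), 4 assembly factors fell, and none of either list rose.

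TOP-type translation genes, like the snoRNP core genes, had medians of the same sign as the members in all 4 comparisons. On MUC1 silencing 15 of 16 tested fell (median -0.49), led by EIF4A2 (-0.99), an initiation helicase, and RACK1 (-0.77), a ribosomal scaffold, and EIF3F (-0.08) did not pass. On MYC silencing 11 of 16 fell, with a median of -0.30 and the largest falls in EEF1B2 (-0.54) and HNRNPA1 (-0.53). TPT1 (0.75) and RACK1 (0.70) led the 13 that rose in 3D vs. 2D cells, where 1 fell (median 0.32). With GO-203, 11 fell and none rose (median -0.16), while the members were split.

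NMD factors, which act on many spliced host RNAs, passed on MYC silencing in shares near those of all genes (30.3% up, 28.1% down). On MYC silencing 4 of 15 rose, XRN1 (0.60) and SMG6 (0.50) the most, 5 fell, MAGOH (-0.88) and EIF4A3 (-0.60) the most, and 6 did not pass, with a median of -0.01. On MUC1 silencing 3 rose and 8 fell (median -0.14), with SMG8 at -0.60. In 3D vs. 2D cells 9 rose and 1 fell (median 0.20), with EIF4A3 at 0.61. With GO-203, 2 rose and 2 fell, between -0.25 and 0.25.

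**Figure D4:**
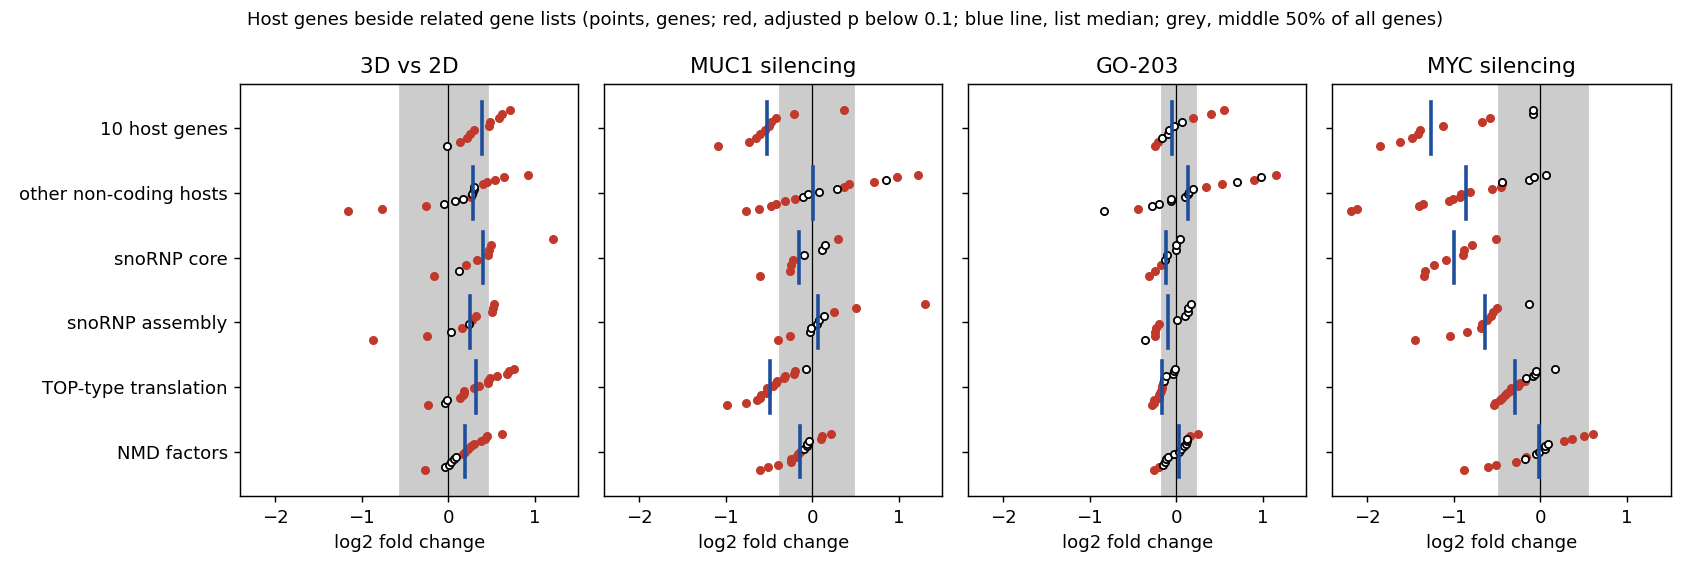
Log2 fold change of every tested gene of 6 lists in 4 comparisons, with red points for adjusted p below 0.1, open points for genes that did not pass, a blue line for the list median and grey for the middle 50% of all genes. On MYC silencing the medians are -1.26 for the 10 host genes, -0.86 for other noncoding hosts, -0.99 for snoRNP core genes, -0.64 for snoRNP assembly genes, -0.30 for TOP-type genes and -0.01 for NMD factors.

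Of 35 snoRNAs listed for the members, 8 had a row in the table and 3 were tested. SNORA73B, from SNHG3, had 1079 to 6538 counts. It had 112.5, 98.1 and 82.5 CPM in vehicle- and 49.7, 51.6 and 24.5 CPM in DOX-treated tet-MUC1shRNA cells, and fell there with its host (log2 fold change -1.19, SE 0.16). On MYC silencing its log2 fold change of -0.37 did not pass (adjusted p = 0.240), and DOX replicate 3, at 50.4 CPM, lay between the first and second vehicle libraries at 55.6 and 42.0 CPM. SNORD12C, from ZFAS1, with 11 to 81 counts, fell by 1.99 on MYC silencing, and SNORD99, from SNHG12, with 6 to 67 counts, by 1.05 (adjusted p = 0.0865). The other 5 had at most 15 counts in a library. Poly(A) libraries do not recover short snoRNAs well, and whether these reads came from mature snoRNAs was not tested.

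Part of each member shares exonic sequence with other genes, and the strand setting of the authors' counting is not given in the sources used here. On the same strand, RCC1, a nuclear exchange factor, shares 242 bases with SNHG3 (5.92% of its exonic bases), and fell by 2.16 on MYC silencing, where SNHG3 fell by 1.85. In 3D vs. 2D cells RCC1 rose by 0.55, and it fell by 0.24 on MUC1 silencing. MCMDC2 and PRSS12 share 58.9% and 37.6% of the exonic bases of SNHG6 and SNHG8 on the opposite strand, and ENSG00000271793 shares 7.48% of those of SNHG5 on the same strand. The part of shared reads in the members' values was not tested.

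The genes whose profile was most like that of the members were sought among 12296 genes with a mean count of at least 100, by the root mean square difference from the members' median log2 profile over the 7 group means. They were EIF4A1P10, a processed pseudogene of EIF4A1 (0.07), UQCC4, an assembly factor of respiratory complex III (0.08), GLUD1, the mitochondrial glutamate dehydrogenase (0.09), H2BC12L (0.09), and NLE1, a factor of large ribosomal subunit assembly (0.10). The median over all these genes was 0.59 and the 1st percentile 0.19. The members themselves lay at 0.18 (SNHG12) to 0.53 (SNHG6) from their own median, so the shared profile described SNHG12, SNHG16 and SNHG15 better than SNHG6, SNHG8 or SNHG5. EIF4A1P10 can share reads with its parent gene, so its value is uncertain.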

How the data were processed

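RNA was prepared from BT-549 cultures in triplicate and sequenced as stranded, paired-end poly(A) libraries. The authors aligned reads to GRCh38 with STAR (version 2.7.3a in the submitters' processing notes; the study's methods give a later one), counted reads per gene with featureCounts, and deposited raw counts for 42339 genes, without normalization. Which annotation release and strand setting were used, and how multi-mapped reads were treated, is not given in the sources used here. Genes with no value in a block of libraries were read as 0, and no member was among them. They numbered 6498 in each 2D and 3D library and 7587 in each GO-203 library. Each tet-MUC1shRNA library had 4952 and each tet-MYCshRNA library 5761. Of the pairwise comparisons, only GO-203 thus set groups with unlike numbers of such genes side by side, and what this changes was not tested. Counts of replicate libraries differed beyond sampling noise in all 21 pairs (chi-square per degree of freedom 4.59 to 58.5).

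Each comparison was fitted on its own 6 libraries, and the interaction on 12, with edgeR 4.0.16 in R 4.3.3 (filterByExpr, TMM, quasi-likelihood test, Benjamini-Hochberg adjustment over all genes tested). A gene passed at an adjusted p below 0.1, and standard errors were the log2 fold change over the square root of F. Intervals are 95% intervals from the same fit. Displayed CPM used TMM factors over the 21 libraries. The members and lists were chosen with earlier results of these data known. All 10 members were named, with the largest passing changes of each list, the protein-coding genes starting within 1 kb on the opposite strand (a lncRNA there was too low to be tested), and the 5 genes of most similar profile (prior count of 2); the overlapping genes named were chosen by shared exonic bases, and some genes are not reported here. Alternatives were DESeq2 1.42.0, RLE factors, library size alone, other filters and thresholds, a joint fit of all libraries, the replicate block and the removal of single libraries.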

Additional observations from a re-analysis of the deposited data

Results flagged for a closer look

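For 9 of the 10 host genes the change on MUC1 silencing differed from that on MYC silencing by the interaction test of edgeR, where 52.9% of all genes did. The difference in log2 fold change, MUC1 minus MYC, was 1.24 for SNHG3 (adjusted p = 3.4e-08), 1.02 for SNHG5 (1.9e-06), 0.90 for SNHG12 (3.7e-05), 0.90 for SNHG15 (9.7e-06), 0.75 for SNHG16 (7.1e-06), 0.73 for SNHG8 (8.9e-04) and 0.51 for SNHG1 (7.9e-04). It was -0.35 for GAS5 (0.00310) and -0.48 for SNHG6 (0.00194), the only members lowered more on MUC1 silencing, and GAS5 did not pass with libraries scaled by size alone (-0.15, adjusted p = 0.143). The lines differ in passage and in the size of the fall of their target, 2.06 on the log2 scale for MUC1 and 0.62 for MYC, and the part of either was not tested.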

How the results depend on the processing

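The 8 falls on MYC silencing kept their direction under every alternative run and passed without each library and under every other tool, scaling, filter and fit tried, but 2 of them passed an absolute log2 fold change of 1.5. With an absolute log2 fold change above 1.5, 0 members passed in 3D vs. 2D cells, 0 on MUC1 silencing, 0 with GO-203, 2 on MYC silencing and 0 in the interaction. The shares of all genes, in the same order, were 16.2%, 8.82%, 0.757%, 10.5% and 16.2%. With an absolute fold change above 1.5, 2 passed in 3D vs. 2D cells, 4 on MUC1 silencing, 0 with GO-203, 8 on MYC silencing and 6 in the interaction. Of all genes tested, 7489 (39.0%), 6185 (32.2%), 1041 (5.63%), 7514 (37.7%) and 8501 (39.4%) did. At an adjusted p below 0.05, 3 passed with GO-203, and leaving out a library gave 3 to 5. Signs turned for SNHG5 in 3D vs. 2D cells (0.06 without 2D replicate 1, 0.02 and 0.08 without 3D replicates 1 and 3) and with GO-203 (0.03 without 3D replicate 2), and for SNHG6 with GO-203 (0.01 without GO-203 replicate 1). None passed, and leaving out libraries gave -0.12 to 0.08, -0.18 to 0.03 and -0.06 to 0.01 for these 3 values. Scaling by library size alone moved the median of all genes on MUC1 silencing from 0.02 to 0.19 and in the interaction from 0.05 to 0.25. SNHG15 then had -0.05 on MUC1 silencing, which is below that median, and did not pass (adjusted p = 0.595), SNHG16 did not pass in 3D vs. 2D cells (0.08, adjusted p = 0.285), SNHG12 did not pass with GO-203 (adjusted p = 0.104), GAS5 did not pass in the interaction (-0.15, adjusted p = 0.143), and ZFAS1 passed there (0.28, adjusted p = 0.050). Without a filter SNHG16 did not pass in 3D vs. 2D cells (adjusted p = 0.103), and in 1 fit over 21 libraries SNHG1 did not pass with GO-203 (adjusted p = 0.192). SNHG8 passed with GO-203 under DESeq2 (adjusted p = 0.0948), RLE factors (0.0924), a minimum of 10 counts (0.0868) and the replicate block (0.0869). The replicate numbers number cultures, and none of the 3 pairs in a comparison had correlated deviations above 0.1 (mean -0.11 to 0.06). With the replicate block 9 members passed in 3D vs. 2D cells, 10 on MUC1 silencing, 6 with GO-203, 8 on MYC silencing and 9 in the interaction. Of all genes, 11802 of 19190, 11922 of 19220, 4973 of 18488, 10478 of 19951 and 10589 of 21585 tested passed. The cause of these shifts was not tested. Member counts of at least 377 make counting error small, so the 3 cultures per group limit precision.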
